A study of Danio rerio with 9 samples.

Results

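The comparison described here set P3 embryos, small zebrafish embryos with extruded yolks, against pooled normal control embryos. P3 is represented by 3 RNA-seq libraries (replicates 0, 1 and 2) and the control by 1 library, which makes 4 of the 9 libraries of the series. The members were taken from GEO's labels and not from any measured value. P3 embryos of the TU strain had been exposed from 4 h post fertilisation (hpf) to a methanol extract of coal dust at 100 mg/L, dissolved in DMSO, and were collected at 24 hpf by their phenotype. Control embryos were of the same strain and age, were labelled normal and were pooled; the labels do not say whether they received DMSO. The same exposure also gave embryos with a deformed tail (P1, 3 libraries) and embryos with a deformed yolk (P2, 2 libraries), which serve below to show where P3 differs. RNA came from whole embryos, 50 for each phenotype group, so that each value is an average over animals and tissues, and embryos entered P3 because of how they looked at collection. The labels do not say whether the libraries of P3, P1 or P2 came from separate pools of embryos. Their spread, on which every test below rests, may therefore be technical.

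Coal dust holds polycyclic aromatic hydrocarbons, flat ring molecules that bind the aryl hydrocarbon receptor (AHR). On binding, the receptor enters the nucleus, pairs with its partner Arnt and switches on cytochrome P450 genes of the CYP1 family, which oxidise the hydrocarbons, together with conjugating enzymes and with the genes of its own repressors. In a zebrafish embryo of this age the trunk muscle is differentiating, the lens and the fin fold are forming, the first pigment appears, and the yolk syncytial layer, a nucleated layer on the yolk surface, packs yolk lipid into lipoproteins for the body.

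Totals were 15520740 to 20810487 counts in the P3 libraries, 14719252 to 18358853 in the P1 and P2 libraries and 12008832 in the control. Expression is given as CPM, a gene's counts relative to the library total, scaled between libraries with TMM factors. Each gene was tested with edgeR's quasi-likelihood test, the source of every adjusted p below (Benjamini-Hochberg over all tested genes); a gene is said to have risen or fallen in P3 where the adjusted p was below 0.05. Having 1 library, the control was assumed to vary as the phenotype libraries do. Of 36 tissue markers, 33 were matched to a gene, and 31 reached 1 CPM in every P3 library and 32 in the control, so that muscle, heart, neurons, epidermis, blood, vessels, hatching gland, myeloid cells, pigment cells and yolk syncytial layer were all sampled. The lens markers cryaa, at 0.147 to 0.249 CPM, and mipb, at 0.935 to 1.87 CPM, were the exceptions in P3. Over 12647 genes, the median absolute log2 difference was 0.115 to 0.119 between replicate 0 and the other P3 libraries and 0.093 between replicates 1 and 2, against 0.187 to 0.225 between a P3 library and the control. Replicate 0 is therefore given separately throughout.

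In P3, 2055 of 19835 tested genes were higher than in the control (10.4% called higher) and 2427 were lower (12.2% called lower), 4482 in all (22.6%). Changes of 2-fold or more were found for 473 higher and 796 lower genes, and the median log2 fold change over all tested genes was 0.01. More members rose than fell on the lists for xenobiotic metabolism, the p53 response, the clock, ribosome biogenesis and the mitochondrial genome, and more fell than rose on those for lens, muscle, matrix, neurons, pigment and epidermis. DESeq2 called 2736 genes, with 1199 higher and 1537 lower. The plot of gene lists gives the counts for all 41 lists.

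**Figure D1:**
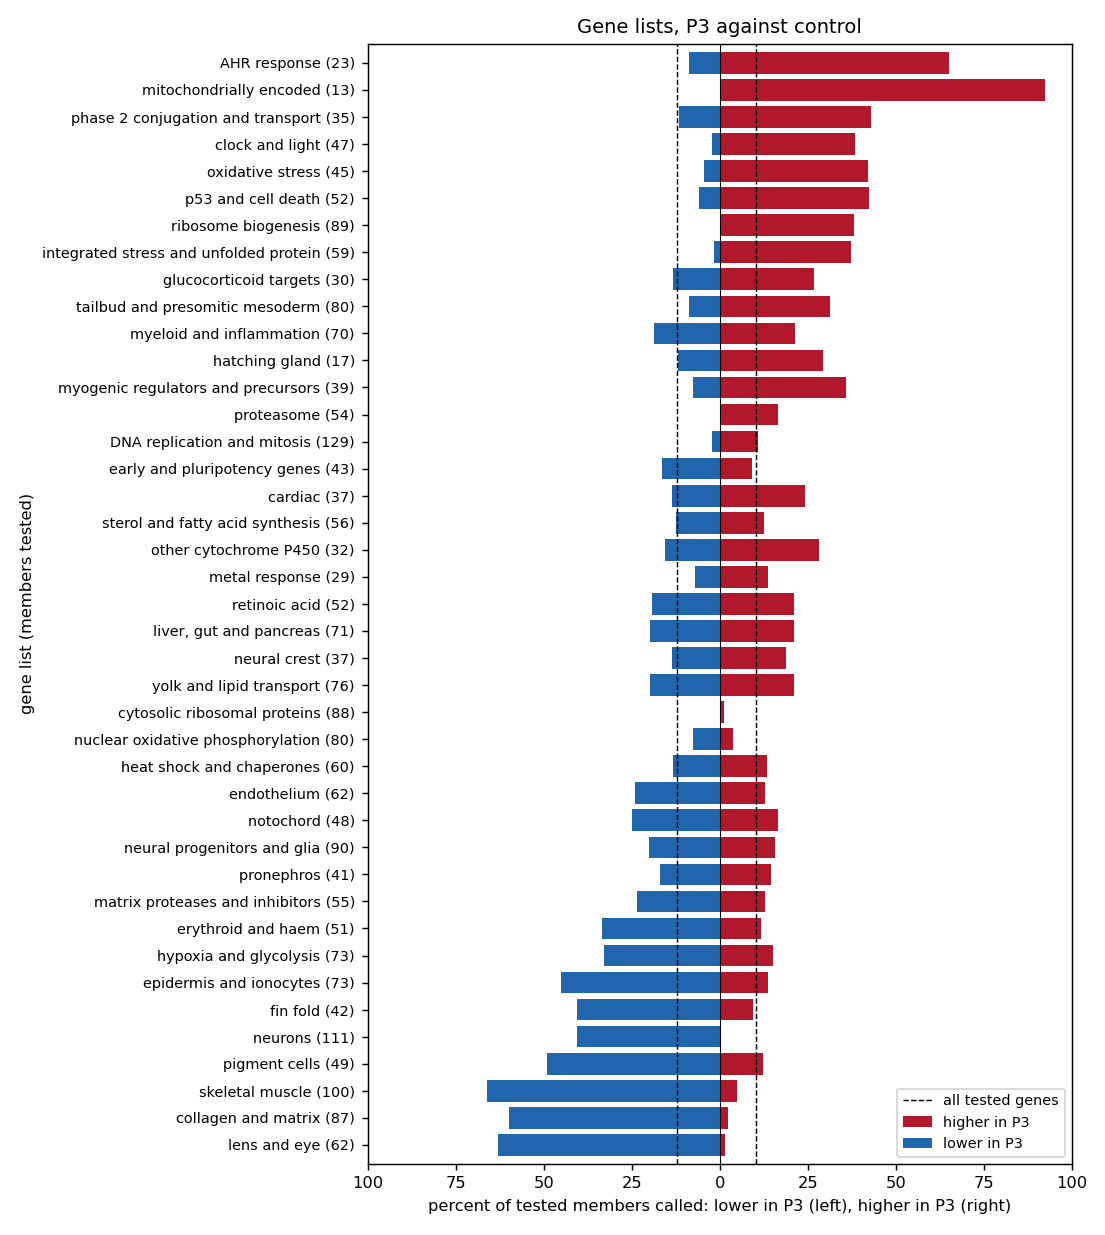
Percent of the tested members of each of 41 gene lists that were higher in P3 (bars to the right) or lower in P3 (bars to the left) than in the control, with the number of members tested in brackets and lists ordered by median log2 fold change. Dashed lines mark the percent over all tested genes, 10.4% higher and 12.2% lower; the AHR and mitochondrially encoded lists stand at the top and the lens, matrix and muscle lists at the bottom.

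Of the 5 largest rises among genes with an assigned symbol at 5 CPM or more in P3, 4 were CYP1 genes. cyp1a, the classic oxidising enzyme of the AHR response (Zv9 chr18:4974676-4985566), stood at 3821, 4221 and 4310 CPM in P3 replicates 0, 1 and 2, against 119 CPM in the control. All 3 P3 libraries lay far above the control, a 34.7-fold difference (log2 5.12, SE 0.11, adjusted p = 9.23e-16). cyp1b1 (chr13:42664264-42671929) had 404, 433 and 373 CPM in P3 and 11 CPM in the control, 36.6-fold. cyp1c1, a fish member of the family, had 118, 176 and 170 CPM in P3 and 3.92 CPM in the control, 39.4-fold, and replicate 0 was the lowest of the P3 libraries. cyp1c2 had 25.9, 37.6 and 40.1 CPM in P3 and 1.34 CPM, or 16 counts, in the control, 25.8-fold. These closely related paralogs may share reads, and the counting of such reads is not stated in the labels or headers. Per length, in the authors' FPKM, cyp1a reached 1464 to 1640 in P3 and 45.3 in the control, above the level of cyp1b1, at 108 to 130 in P3 and 3.24 in the control. cyp1c1 reached 38.5 to 58 FPKM in P3 and cyp1c2 16.7 to 25.3 FPKM, against 1.27 and 0.862 FPKM in the control. The remaining family member cyp1d1 had 6.48, 6.93 and 7.77 CPM in P3 and 7.77 CPM in the control (log2 -0.13, SE 0.21, adjusted p = 0.709).

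Across the AHR list, 15 of 23 tested members rose and 2 fell, with a median log2 fold change of 1.45. sult6b1, a sulfotransferase, had 480, 568 and 589 CPM in P3 and 60 CPM in the control, 9.09-fold. tiparp, an ADP-ribosyltransferase that restrains the receptor, was steady at 151, 152 and 156 CPM in P3 against 44.1 CPM in the control, 3.47-fold. foxq1a, a forkhead transcription factor, had 23.1, 27.6 and 27.3 CPM in P3 and 2.09 CPM in the control, 12.4-fold. The receptor's own gene ahr2 rose too, to 62.2, 79.5 and 75.7 CPM in P3 against 41.9 CPM in the control (1.73-fold, adjusted p = 0.000248). The repressor gene ahrrb had 0.249, 1.4 and 0.737 CPM in P3 and no count in the control, where 3 counts would be 0.2498 CPM, so that no fold is given. The AHR members were on the whole less raised in replicate 0: its median log2 difference from the control was 1.3, against 1.45 and 1.54 in replicates 1 and 2. Against the other exposed embryos, 10.4% of all tested genes differed between P3 and P1, with 6.01% higher and 4.42% lower in P3. Between P3 and P2, 21.5% differed, with 11.0% higher and 10.5% lower in P3. Of the AHR members, 2 were higher and 1 lower in P3 than in P1, and 6 were higher in P3 than in P2. The log2 difference of cyp1a was 0.01 from P1 (adjusted p = 0.952) and 0.04 from P2 (adjusted p = 0.676), while cyp1b1 was 0.30 (adjusted p = 0.00441) and cyp1c2 0.66 (adjusted p = 0.00334) higher in P3 than in P2.

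**Figure D2:**
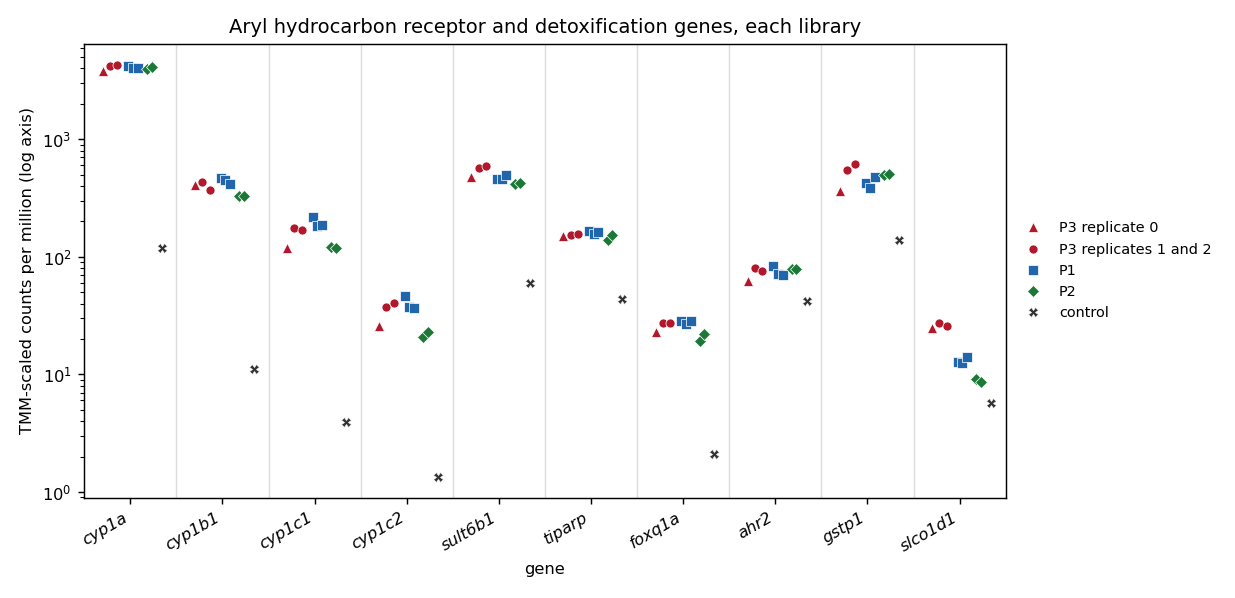
CPM (log axis) of 10 AHR and detoxification genes in each library, with P3 replicate 0 as triangles, P3 replicates 1 and 2 as circles, P1 as squares, P2 as diamonds and the control as crosses. The P3 libraries of cyp1a lie at 3821 to 4310, beside P1 and P2 and above the control at 119; slco1d1 stands higher in P3 (24.8 to 27.3) than in the P1 and P2 libraries.

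Genes for conjugation and transport of foreign compounds followed in part. On that list 15 of 35 tested members rose and 4 fell, and 9 were higher in P3 than in P1, beside 6.01% of all genes. gstp1, a glutathione transferase, had 361, 552 and 618 CPM in P3 and 139 CPM in the control, 3.67-fold, with replicate 0 lowest. ugt1ab, a glucuronosyltransferase, had 20.5, 22.8 and 24.2 CPM in P3 and 8.27 CPM in the control, 2.73-fold. slco1d1, an organic anion transporter, had 24.8, 27.3 and 25.9 CPM in P3 and 5.76 CPM in the control, 4.5-fold. It was also higher in P3 than in P1 (log2 0.99, adjusted p = 4.11e-07) and than in P2 (log2 1.54, adjusted p = 6.48e-09). Cytochrome P450 genes outside the CYP1 family split: 9 of 32 rose and 5 fell, beside 10.4% and 12.2% of all genes. cyp26a1, which breaks down retinoic acid, had 76.8, 77.1 and 83.6 CPM in P3 and 35.8 CPM in the control, 2.21-fold. cyp17a1, a steroid enzyme, fell to 2.31, 2.61 and 2.16 CPM in P3, against 16.5 CPM in the control.

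On the oxidative stress list 19 of 45 tested members rose and 2 fell, with a median log2 fold change of 0.25. sqstm1, an autophagy adaptor, had 90.7, 119 and 122 CPM in P3 and 45.2 CPM in the control, 2.45-fold, and nfe2l2a, which encodes the Nrf2 factor that switches on antioxidant genes, had 38.5, 51.9 and 51.1 CPM in P3 and 29.6 CPM in the control, 1.59-fold. hmox1, the inducible haem oxygenase, had 64.9, 59.6 and 63.4 CPM in P3 and 74.5 CPM in the control (adjusted p = 0.0877). On the p53 and cell death list 22 of 52 rose and 3 fell, with a median of 0.24. bbc3, which encodes the death-promoting protein Puma, had 9.98, 11.3 and 12.2 CPM in P3 and 4.76 CPM in the control, 2.36-fold. cdkn1a, the p21 cell cycle inhibitor, rose 1.85-fold and mdm2, the ligase that degrades p53, 1.59-fold. Both bbc3 (log2 -0.71, adjusted p = 6.61e-05) and cdkn1a (log2 -1.05, adjusted p = 2.32e-07) were lower in P3 than in P2. The DNA repair gene ddb2 showed the departure of replicate 0, with 20.7, 40.1 and 44.2 CPM in P3 and 13.9 CPM in the control.

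Of the integrated stress and unfolded protein list 22 of 59 rose and 1 fell. Of these 59, 27 were higher in P3 than in P2, beside 11.0% of all genes. ddit4, an inhibitor of mTOR signalling, had 31.2, 27.1 and 28.9 CPM in P3 and 11.4 CPM in the control, 2.56-fold, above P1 (log2 0.69) and below P2 (log2 -1.02). sesn2, a stress-induced regulator of nutrient signalling, rose 2.03-fold and was higher in P3 than in P1 (adjusted p = 9.03e-05) and than in P2 (adjusted p = 2.08e-05). asns, asparagine synthetase, had 59.2, 71.6 and 69.1 CPM in P3 and 55.3 CPM in the control (adjusted p = 0.0801). Of 60 heat shock and chaperone genes 8 rose and 8 fell, close to the 10.4% and 12.2% of all genes, and DESeq2 called 6 and 3. hsp70l, the heat-inducible Hsp70, had 1.18, 0.191 and 0.492 CPM in P3 and 0.167 CPM in the control, on 19, 3 and 10 counts against 2 (log2 1.83, SE 1.06, adjusted p = 0.233). dnajb1b, an Hsp70 partner, rose 1.78-fold. hspb9, a small heat shock protein gene, fell to 11.9, 20 and 22.4 CPM in P3, against 60.8 CPM in the control.

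On the hypoxia and glycolysis list 11 of 73 rose, a pair of glucose transporters among them, and 24 fell. These counts stand beside 10.4% and 12.2% of all genes. slc2a3 had 73.8, 70.2 and 68.1 CPM in P3 and 32.3 CPM in the control, 2.19-fold, and slc2a1a had 77.9, 73.1 and 56.6 CPM in P3 and 29.1 CPM in the control, 2.37-fold. Both transporters were also higher in P3 than in P1 and in P2, slc2a3 by log2 0.70 and 1.16. pfkma, a muscle phosphofructokinase, had 2.74, 4.9 and 6.19 CPM in P3 and 25.4 CPM in the control, 5.39-fold lower. egln3, a prolyl hydroxylase that marks hypoxia-inducible factor for breakdown and is itself induced by it, had 2.24, 4.13 and 4.42 CPM in P3, 2.71 CPM as the P1 mean, 50.2 CPM as the P2 mean and 13.2 CPM in the control. The P3 libraries lay below the control (log2 -1.85, SE 0.21, adjusted p = 5.93e-06) and below both P2 libraries (log2 -3.78, adjusted p = 9.61e-12). p4ha1b, a collagen prolyl hydroxylase, and slc16a3, a lactate exporter, fell 2.45-fold and 2.15-fold.

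Of 47 clock and light-response genes 18 rose and 1 fell, with 28 not called. per2, a light-induced clock repressor, had 36.7, 72 and 68.6 CPM in P3 and 21.8 CPM in the control. lonrf1l, which encodes a ring finger protein, had 66.7, 89.3 and 95.7 CPM in P3 and 19.6 CPM in the control, 4.28-fold. cry5, the light-dependent repair enzyme for ultraviolet lesions, had 19.1, 49.6 and 51.6 CPM in P3 and 11 CPM in the control, 3.66-fold. In each of these genes replicate 0 was nearest to the control and still above it. Compared with P2, 3 clock genes were higher and 20 lower in P3, beside 11.0% and 10.5% of all genes. Of 30 tested glucocorticoid targets 8 rose and 4 fell, beside 10.4% and 12.2% of all genes, with a median log2 fold change of 0.18. tsc22d3, the steroid-induced leucine zipper gene, had 64.5, 75 and 74.6 CPM in P3 and 35.9 CPM in the control. nr0b2a, on the same list, fell to 43.4, 38.2 and 38.2 CPM in P3, against 64.2 CPM in the control. On the metal list 4 of 29 rose and 2 fell, near or below the shares of all genes. slc30a1b, a zinc exporter, rose to 27.1, 23.8 and 25 CPM in P3, against 8.85 CPM in the control, whereas mt2, a metallothionein, fell to 44.8, 45.5 and 53.2 CPM in P3, against 94.3 CPM in the control.

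Lens and eye genes had the lowest median of the 41 lists. On the lens and eye list 39 of 62 tested members fell and 1 rose, with a median log2 fold change of -1.64; DESeq2 called 24 lower. crybb1l1, a beta crystallin, one of the structural proteins that make the lens clear, had 7.36, 12.3 and 10.2 CPM in P3 and 76.7 CPM in the control, 7.69-fold lower. crygm2d13, a gamma M crystallin, had 0.561, 0.763 and 1.08 CPM in P3 and 12 CPM in the control, 14.5-fold lower, and mipb, the lens water channel, had 0.935, 1.21 and 1.87 CPM in P3 and 14.7 CPM in the control, 10.6-fold lower. These 3 genes were taken only where every P3 library lay below the control, as 35.9% of all tested genes did. Gamma M crystallins form a family of near-identical copies, among which reads could be split. Of 91 matched lens and eye genes, 29 were too low to test, and some tested ones passed the filter through the control alone. With a minimum of 1 CPM in 2 libraries the median was -0.82. The summed lens and eye list came to 576, 616 and 636 CPM in P3, against 1373 CPM in the control. In whole embryos, fewer cells of a type and less RNA per cell cannot be told apart, here and in the tissue lists below. Between exposed groups, 18 lens and eye genes were lower in P3 than in P1, beside 4.42% of all genes. In contrast, 12 lens and eye genes were higher and 2 lower in P3 than in P2, beside 11.0% and 10.5% of all genes. crybb1 had 19.1 to 27.4 CPM in P3, with a log2 difference of -0.69 from P1 (adjusted p = 0.000317) and 0.37 from P2 (adjusted p = 0.044).

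Of 49 tested pigment cell genes, 24 fell and 6 rose against the control. Between exposed groups, 5 were higher and 4 lower in P3 than in P1, beside 6.01% and 4.42% of all genes. Against P2, 18 were higher and 1 lower in P3, beside 11.0% and 10.5% of all genes. dct, an enzyme of melanin synthesis, had 35.2, 41.3 and 44.6 CPM in P3, 50.6 CPM as the P1 mean, 21 CPM as the P2 mean and 133 CPM in the control, 3.29-fold lower in P3 than in the control. tyr, tyrosinase, had 23.2, 26.2 and 24.1 CPM in P3 and 51.6 CPM in the control. gch2, which starts the synthesis of pteridine pigments, had 185, 235 and 223 CPM in P3 and 433 CPM in the control. gchfr, which encodes the feedback regulator of the same pteridine step, went the other way, with 6.98, 7.69 and 8.41 CPM in P3 and 0.751 CPM, or 9 counts, in the control, 10.2-fold. Pigment cells arise from the neural crest, and on that list 7 of 37 were higher and 5 lower, beside 10.4% and 12.2% of all genes. The median log2 fold change of the crest list was 0.04, and DESeq2 called 5 higher and 3 lower. foxd3, an early crest factor, was among those that rose, by 1.66-fold.

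The actinodins, structural proteins of the embryonic fin fold that are specific to fishes, gave the 2 largest falls among genes with an assigned symbol at 5 CPM or more in the control. and2 (Zv9 chr2:31480049-31484497) had 0.935, 2.1 and 1.82 CPM in P3 and 57.7 CPM in the control, 35.2-fold lower (log2 -5.14, SE 0.18, adjusted p = 1.51e-12). and3 had 0.249, 1.14 and 1.82 CPM in P3 and 17.2 CPM in the control, 15.2-fold lower, and and1 had 8.11, 13.9 and 12.5 CPM in P3 and 83.2 CPM in the control, 7.21-fold lower. Replicate 0 was the lowest of the P3 libraries for all 3. and1 was also lower in P3 than in P1 (log2 -1.08, adjusted p = 2.73e-05) and higher than in P2 (log2 0.50, adjusted p = 0.0396). Over the fin fold list 17 of 42 fell and 4 rose, beside 12.2% and 10.4% of all genes.

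Matrix genes fell broadly: 52 of 87 tested members of the collagen and matrix list were lower and 2 higher, with a median log2 fold change of -0.60. col1a1b, a fibrillar collagen chain, had 292, 339 and 365 CPM in P3 and 682 CPM in the control, 2.05-fold lower. tnw, a tenascin, had 161, 206 and 210 CPM in P3 and 511 CPM in the control, 2.66-fold lower. fmodb, a fibromodulin that binds collagen fibrils, had 0.686, 2.54 and 1.82 CPM in P3 and 24.5 CPM in the control, 14.5-fold lower. thbs2b, a thrombospondin, was at 11, 12.1 and 11.7 CPM in P3 and 43.2 CPM in the control; it was lower in P3 than in P1 (log2 -0.90) and than in P2 (log2 -0.55) too. Summed over the list, matrix RNA came to 6857, 7841 and 7765 CPM in P3, against 11361 CPM in the control. Proteases and inhibitors were mixed, with 7 of 55 higher and 13 lower, beside 10.4% and 12.2% of all genes. mmp13a, a collagenase, rose 6.18-fold to 6.48, 7.06 and 8.11 CPM in P3, against 1.17 CPM or 14 counts in the control. ctsc, a lysosomal dipeptidase, rose to 199, 160 and 159 CPM in P3, against 73.8 CPM in the control. adamts15a, on the same list, fell to 2.93, 4.51 and 3.49 CPM in P3, against 13 CPM in the control.

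Epidermal genes fell in 33 of 73 cases and rose in 10. krt5, a basal keratin, had 735, 523 and 504 CPM in P3 and 1069 CPM in the control, and replicate 0 was nearest to the control. krt15 fell further, with 1.81, 1.65 and 1.28 CPM in P3 and 11.8 CPM in the control, 7.52-fold lower. col17a1a, a collagen of the junction that anchors basal cells, had 1.12, 1.34 and 0.59 CPM in P3 and 8.85 CPM in the control, 8.93-fold lower. Relative to P1, 18 epidermal genes were higher and 10 lower in P3, beside 6.01% and 4.42% of all genes. Notochord genes gave 8 of 48 higher and 12 lower; matn4, a cartilage and notochord matrix protein, had 233, 270 and 286 CPM in P3 and 467 CPM in the control. The hatching gland list, 5 of 17 higher and 2 lower, had its main protease he1a at 1317, 1300 and 1382 CPM in P3 and 1141 CPM in the control.

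On the skeletal muscle list 66 of 100 tested members were lower in P3 and 5 higher, with a median log2 fold change of -0.57. mylpfa, a fast myosin light chain, had 2034, 2602 and 2816 CPM in P3 and 4373 CPM in the control, 1.76-fold lower. mylpfb had 94.8, 115 and 126 CPM in P3 and 448 CPM in the control, 4.0-fold lower. capn3, a muscle protease, had 1.37, 2.73 and 2.51 CPM in P3 and 17.5 CPM in the control, 7.87-fold lower. atp2a1l, a calcium pump of the sarcoplasmic reticulum, had 1.06, 2.23 and 1.33 CPM in P3 and 13.4 CPM in the control, 8.81-fold lower. Replicate 0 had the lowest muscle RNA: summed over the list it came to 34596 CPM in that library and 42118 and 44264 CPM in replicates 1 and 2, against 63420 CPM in the control. Without replicate 0 the count of lower members was 64 and the median -0.47. Replicate 0 thus lay below all other libraries, while replicates 1 and 2 lay below the P1 libraries, at 45034 to 48769 CPM, and above the P2 libraries, at 35320 and 35812 CPM. By gene, 4 muscle genes were higher and 27 lower in P3 than in P1, beside 6.01% and 4.42% of all genes. Against P2, 36 were higher and 4 lower in P3, beside 11.0% and 10.5% of all genes.

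On the list of myogenic regulators and precursors 14 of 39 rose and 3 fell, with a median log2 fold change of 0.11. myog, the transcription factor that starts muscle differentiation, had 90.3, 76.8 and 82.6 CPM in P3 and 27.2 CPM in the control, 3.06-fold, and was also higher in P3 than in P1 (log2 0.29, adjusted p = 0.0197). jam2a, a membrane protein needed for myoblast fusion, had 37.2, 31.7 and 38.1 CPM in P3 and 12.1 CPM in the control, 2.95-fold, and meox1, a somite homeobox gene, rose 1.94-fold. Of 37 heart genes 9 rose and 5 fell, beside 10.4% and 12.2% of all genes. DESeq2 called 5 and 2 of them, and 23 were not called by edgeR. Their median log2 fold change was 0.08 (0.01 without replicate 0), and their sum came to 2491, 2853 and 2647 CPM in P3, against 3391 CPM in the control. Among the 9 that rose, nkx2.7 was 1.86-fold higher and tnnt2a, cardiac troponin T, had 43.3, 38.3 and 45.3 CPM in P3. tnnt2a had 27.6 CPM in the control. The heart markers myl7 and vmhc stood at 64.2, 61.8 and 59.3 CPM and at 52.7, 63.8 and 65 CPM in P3. In the control myl7 and vmhc had 54.5 and 47.8 CPM.

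Genes of the tailbud and presomitic mesoderm, the tissue at the tail end that buds off somites, were higher in P3 in 25 of 80 cases and lower in 7, with 13 and 6 called by DESeq2. tbx6, a T-box factor of the presomitic mesoderm, had 27, 21.4 and 21.9 CPM in P3 and 5.34 CPM in the control, 4.37-fold. cdx4, a caudal homeobox gene, had 30.5, 19.9 and 24.5 CPM in P3 and 8.35 CPM in the control, 2.99-fold, and her1, an oscillating segmentation gene, had 8.04, 3.81 and 2.75 CPM in P3 and 1.5 CPM in the control. Replicate 0 was the highest library for these 3 genes. The members that fell included late posterior Hox genes: hoxb13a had 3.06, 3.05 and 2.7 CPM in P3 and 6.51 CPM in the control. tbx6 was higher in P3 than in P1 (log2 0.86, adjusted p = 1.9e-05) and not distinguishable from P2 (log2 -0.11, adjusted p = 0.466). These levels moved beside the lower muscle, lens and matrix levels in the same libraries, and a difference in developmental stage between P3 and control embryos was not tested.

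Of 111 tested neuronal genes 45 were lower in P3 and 0 were higher by edgeR, with 2 higher at an unadjusted p under 0.05 and 0 higher by DESeq2. ache, acetylcholinesterase, had 38.3, 44.8 and 43 CPM in P3 and 74.6 CPM in the control, and nefm, a neurofilament, had 25.5, 23.3 and 23.6 CPM in P3 and 40.6 CPM in the control, 1.68-fold lower. nefm was higher in P3 than in P2 (log2 1.39, adjusted p = 4.96e-08). The general neuron marker elavl3 had 198, 237 and 230 CPM in P3 and 261 CPM in the control (adjusted p = 0.0641), and was called lower when replicate 1 was left out. Over all 111 members the median log2 fold change was -0.37, and by library the median was -0.48 in replicate 0 and -0.31 and -0.29 in replicates 1 and 2. Progenitor and glial genes were divided, 14 of 90 higher and 18 lower, beside 10.4% and 12.2% of all genes. nes, the progenitor filament nestin, fell 1.56-fold. fabp7a, a radial glia fatty acid binding protein, had 67, 82.4 and 93.4 CPM in P3 and 142 CPM in the control. her2, on the same list, rose 1.64-fold.

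**Figure D3:**
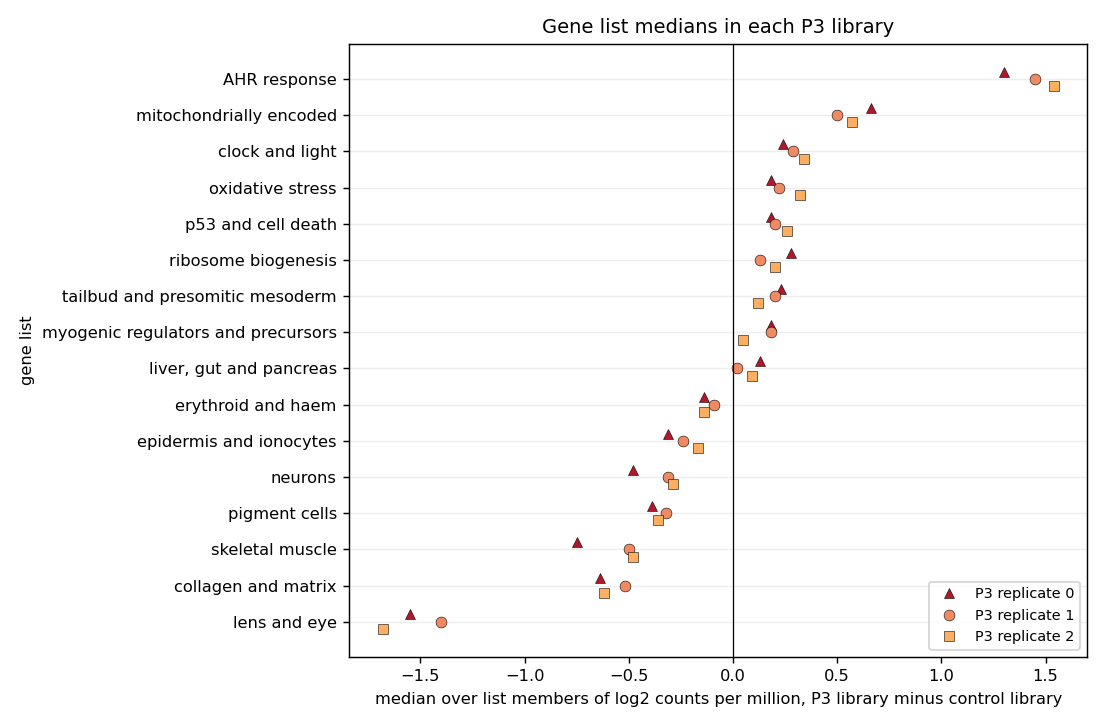
Median over the members of 16 gene lists of log2 CPM in each P3 library minus the control library. Replicate 0 (triangles) is lower than replicates 1 and 2 for muscle (-0.75 against -0.50 and -0.48) and neurons (-0.48 against -0.31 and -0.29), and higher for mitochondrially encoded genes (0.66 against 0.50 and 0.57).

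P3 was selected for an extruded yolk, and genes of the yolk syncytial layer and of lipid handling were split, 16 of 76 higher and 15 lower than in the control. apobb.1 and mttp, which build lipoproteins on the yolk surface, stood at 3340, 3960 and 3670 CPM and at 18.9, 17.7 and 16.3 CPM in P3, against 3640 and 14.9 CPM in the control. apoa4, another apolipoprotein, fell to 189, 154 and 169 CPM in P3, against 438 CPM in the control, and a copy of the gene listed as APOB (3 of 3) had 32.4, 32.1 and 32.7 CPM in P3 and 130 CPM in the control. rbp4, the retinol carrier, fell 3.17-fold to 103, 97.9 and 106 CPM in P3, against 324 CPM in the control. In contrast angptl4, a lipase inhibitor induced by fatty acids, had 164, 141 and 148 CPM in P3 and 60.4 CPM in the control, 2.51-fold. soat1, which esterifies cholesterol and is on the sterol and fatty acid synthesis list, rose 3.43-fold. It was also higher in P3 than in P1 (log2 0.82) and than in P2 (log2 1.25). hadhaa, of mitochondrial fatty acid oxidation, rose 2.35-fold.

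On the yolk list and the liver and gut list more members were higher than lower in P3 relative to both P1 and P2. The same held for other lists, the integrated stress and mitochondrially encoded ones among them. Gene lists can share members, and rbp4 is on both the yolk list and the liver and gut list. On the yolk list 22 members were higher in P3 than in P1 with 7 lower, and 29 were higher than in P2 with 8 lower. On the liver, gut and pancreas list, where 15 of 71 were higher and 14 lower than in the control, 24 were higher in P3 than in P1 with 3 lower, and 34 were higher than in P2 with 2 lower. These counts stand beside 6.01% of all genes higher and 4.42% lower in P3 than in P1, and 11.0% higher and 10.5% lower than in P2. apoa1a, the main apolipoprotein of high-density particles, had 5653, 5368 and 6240 CPM in P3, 4143 CPM as the P1 mean, 3142 CPM as the P2 mean and 3956 CPM in the control. serpina1l, a plasma protease inhibitor, had 114, 92.8 and 99.4 CPM in P3, 55.7 CPM as the P1 mean, 40.7 CPM as the P2 mean and 59.2 CPM in the control. hnf4a, a nuclear receptor of liver and gut, had 26.9, 26 and 22.4 CPM in P3 and 10 CPM in the control, 2.5-fold, with a log2 difference of 1.26 from P2 (adjusted p = 1.71e-07) and 0.21 from P1 (adjusted p = 0.112). f7, a clotting factor, fell 5.54-fold, to 0.811, 1.53 and 1.38 CPM in P3 against 6.93 CPM in the control. Kidney precursor genes gave 6 of 41 higher and 7 lower than in the control, beside 10.4% and 12.2% of all genes. Of these 41, 10 were higher in P3 than in P1, beside 6.01% of all genes. hnf1ba, a regulator of the tubule, had 29.9, 26.1 and 26.3 CPM in P3 and 15.6 CPM in the control. On the same list aqp3a fell 2.74-fold to 23.3, 30.5 and 25.1 CPM in P3, against 72 CPM in the control. Sterol and fatty acid synthesis genes were 7 of 56 higher and 7 lower than in the control, near the 10.4% and 12.2% of all genes. Of these 56, 5 were higher and 19 lower in P3 than in P1, beside 6.01% and 4.42% of all genes. Against P2, 7 were higher and 22 lower in P3, beside 11.0% and 10.5% of all genes.

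Some genes differed from both P1 and P2 in the same direction, and their largest differences are given here; both comparisons use the same P3 libraries. agt, the gene of angiotensinogen, the blood pressure hormone precursor (Zv9 chr13:24212332-24219766), had 19.4, 14.9 and 15.7 CPM in P3, 3.93 CPM as the P1 mean, 5.46 CPM as the P2 mean and 0.334 CPM, or 4 counts, in the control. Among genes with an assigned symbol at 5 CPM or more in P3 it was the largest rise against the control (48.8-fold, log2 5.61, SE 0.4, adjusted p = 2.15e-08) and higher than in P1 (log2 2.08) and P2 (log2 1.60). abcb11a, a relative of the bile salt export pump, had 79.6, 52.3 and 56.6 CPM in P3, 17.9 CPM as the P1 mean, 15.4 CPM as the P2 mean and 14.8 CPM in the control, so that it was 4.24-fold higher in P3 than in the control (adjusted p = 2.18e-06). KLF10, a zinc finger factor, had 14.6, 12.5 and 13 CPM in P3, 3.15 CPM as the P1 mean, 5.98 CPM as the P2 mean and 2.84 CPM in the control. These 3 genes were picked for having every P3 library above all P1 and P2 libraries. Of 19835 tested genes, 554 were called higher against both, 545 of them with no such overlap. Another 291 were called lower against both, 288 of them with every P3 library below all P1 and P2 libraries.

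mogat2, which rebuilds triglyceride from absorbed fat, had 7.11, 6.74 and 6.29 CPM in P3, 2.78 and 2.16 CPM as the P1 and P2 means and 2.34 CPM in the control. cyp11a1, which cuts the cholesterol side chain to start steroid synthesis, had 7.86, 7.38 and 7.62 CPM in P3, 2.5 and 3.53 CPM as the P1 and P2 means and 4.76 CPM in the control, and its difference from the control missed the threshold (adjusted p = 0.081). adora2ab, an adenosine receptor, had 7.05, 4.58 and 4.52 CPM in P3 and 2.5 CPM in the control. On the lower side, ptgdsb, a prostaglandin D synthase, had 14.3, 35.7 and 41.7 CPM in P3, 65.4 and 88.1 CPM as the P1 and P2 means and 13.9 CPM in the control, so that replicate 0 stood at the control's level. Sterol genes were again among them: cyp51, which demethylates lanosterol, had 4.68, 8.71 and 8.75 CPM in P3, 14.3 and 15.8 CPM as the P1 and P2 means and 11.4 CPM in the control. msmo1, of the next steps, had 1.43, 3.43 and 3.05 CPM in P3 and 4.77 and 5.57 CPM as the P1 and P2 means. In the control msmo1 had 1.67 CPM, or 20 counts, and did not differ from P3 at the threshold (adjusted p = 0.265). elovl2, which lengthens fatty acids, had 5.92, 5.98 and 4.38 CPM in P3 and 5.43 CPM in the control, with log2 differences of -0.91 from P1 and -0.86 from P2.

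**Figure D4:**
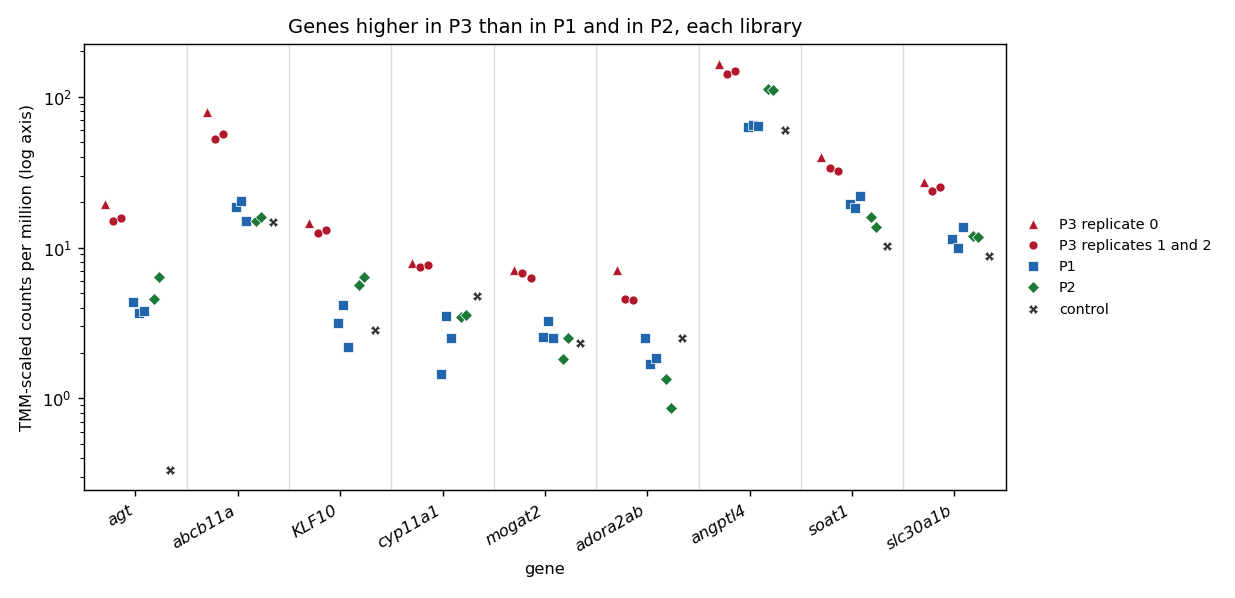
CPM (log axis) in each library of 9 genes that were higher in P3 than in P1 and in P2, with symbols as P3 replicate 0 (triangles), P3 replicates 1 and 2 (circles), P1 (squares), P2 (diamonds) and control (crosses). The P3 libraries of abcb11a lie at 52.3 to 79.6, above the control at 14.8 and above the P1 and P2 libraries.

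The largest rises against the control outside the lists included transporters. slc16a9b, of the monocarboxylate transporter family, had 70.5, 64.9 and 68.6 CPM in P3 and 4.51 CPM in the control, 15.1-fold (adjusted p = 2.24e-12), and its paralog slc16a9a had 12.7, 14.2 and 15.8 CPM in P3 and 0.835 CPM, or 10 counts, in the control. slc16a9a separated the exposed groups, with 2.39 CPM as the P1 mean and 22.2 CPM as the P2 mean, so that P3 lay above P1 (log2 2.57, adjusted p = 3.41e-09) and below P2 (log2 -0.63, adjusted p = 0.000255). Among the falls, fam20a, of a family of secretory pathway kinases and related proteins, had 0.811, 0.318 and 0.541 CPM in P3 and 5.18 CPM in the control.

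Blood and immune genes were mixed. Of 51 erythroid and haem genes 17 fell and 6 rose, and 16 were lower in P3 than in P1, beside 4.42% of all genes. rhag, a red cell membrane channel, had 38.7, 45.3 and 44.9 CPM in P3 and 81.9 CPM in the control, 1.9-fold lower, and the globin gene hbae3 had 793, 964 and 1084 CPM in P3 and 1449 CPM in the control. Globin copies share sequence, and reads may be split among them. Endothelial genes gave 8 of 62 higher and 15 lower, beside 10.4% and 12.2% of all genes, with a median log2 fold change of -0.03. DESeq2 called 4 and 7 of them, and leaving out replicate 2 left 9 lower. mrc1a, a scavenger receptor of veins and lymphatics, had 11.3, 14.2 and 13.6 CPM in P3 and 37.4 CPM in the control, and hey1, a Notch target, rose 2.25-fold. Of 70 myeloid and inflammation genes 15 rose and 13 fell, with 8 and 9 by DESeq2. Of these 70, 15 were higher in P3 than in P1, beside 6.01% of all genes. The neutrophil and macrophage markers lyz (8.79, 11 and 11.9 CPM in P3, 28.3 CPM in the control) and mpx (4.8, 3.75 and 3.29 CPM in P3, 11.7 CPM in the control) fell, while irg1l, an inducible gene of inflamed cells, rose 5.26-fold to 10.7, 8.52 and 8.65 CPM in P3, against 1.75 CPM or 21 counts in the control.

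Of 89 ribosome biogenesis genes 34 were higher in P3 than in the control by edgeR and 21 by DESeq2; 0 were lower by either tool, and 0 were lower at an unadjusted p under 0.05. polr1b, a subunit of the polymerase that makes ribosomal RNA, had 46.8, 44.9 and 43.1 CPM in P3 and 27.3 CPM in the control, 1.64-fold. The same list had 58 members lower in P3 than in P2, beside 10.5% of all genes. Of 88 cytosolic ribosomal protein genes 1 rose, RPS27L, a p53-responsive relative of RPS27, at 34.3, 36.1 and 42.5 CPM in P3 and 20 CPM in the control. For DNA replication and mitosis 14 of 129 were higher and 3 lower, with 7 and 2 by DESeq2 and 9 higher without replicate 2, close to the 10.4% of all genes; mcm3, a helicase subunit, had 34.9, 25.3 and 26.8 CPM in P3 and 16.2 CPM in the control. Proteasome genes were higher in 9 of 54 cases by edgeR and 4 by DESeq2, and lower in 0 by either, with 2 lower at an unadjusted p under 0.05. The share of all genes higher by edgeR was 10.4%.

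Of 13 genes of the mitochondrial genome 12 rose by edgeR and by DESeq2, and 0 fell by either or at an unadjusted p under 0.05. mt-cyb, cytochrome b, had 4674, 4267 and 4338 CPM in P3 and 2392 CPM in the control, 1.85-fold, and mt-co1, a cytochrome oxidase subunit, 10447, 10873 and 11024 CPM in P3 and 7009 CPM in the control, 1.54-fold. The sum over the 13 genes was 42177, 39506 and 40836 CPM in P3, against 36756, 33924 and 36573 CPM in P1, 29223 and 28857 CPM in P2 and 27392 CPM in the control. The P3 libraries were the highest of all 9. Of the members, 8 were higher in P3 than in P1 and all 13 higher than in P2, beside 6.01% and 11.0% of all genes. Nuclear genes of oxidative phosphorylation gave 3 of 80 higher and 6 lower than in the control, below the 10.4% and 12.2% of all genes.

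The retinoic acid list had 11 of 52 higher and 10 lower. rbp2b, a cellular retinol binding protein, had 27.4, 28.9 and 33.3 CPM in P3 and 8.27 CPM in the control, 3.63-fold, while crabp1b, a retinoic acid binding protein, fell 2.05-fold to 11.5, 10.9 and 11.8 CPM in P3, against 23.5 CPM in the control. Early embryonic and maternal genes had 4 of 43 higher and 7 lower, beside 10.4% and 12.2% of all genes, and DESeq2 called 4 and 3. Among those lower, hmga2, a chromatin protein, fell 1.5-fold.

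Replicate 0 departed most in a small set of genes. Of 12648 genes at 5 CPM or more in P3, 30 lay 2-fold or more from the mean of the other P3 libraries in replicate 0, 27 of them below, against 5 such genes in replicate 1 and 1 in replicate 2. The lowest in replicate 0 was crtac1a, a matrix protein gene, with 2.37 CPM in that library and 12.6 and 13 CPM in replicates 1 and 2, against 0.751 CPM in the control. cp, ceruloplasmin, a copper carrier of plasma, had 9.1 CPM in replicate 0 and 37.9 and 36.4 CPM in replicates 1 and 2, against 37.7 CPM in the control. xirp2b, an actin-binding muscle gene, had 2.31 CPM in replicate 0 and 7.12 and 6.44 CPM in the others, against 34.4 CPM in the control, and dhrs13l1, a dehydrogenase gene, had 5.86 CPM against 15 and 18.1 CPM, with 1.59 CPM in the control. On the high side, he2, a hatching enzyme, had 67.3 CPM in replicate 0 and 27.9 and 24.2 CPM in replicates 1 and 2, against 43.3 CPM in the control. hsp90aa1.2, a chaperone, had 96.6 CPM in replicate 0 and 45.5 and 50.4 CPM in the others, against 31 CPM in the control. rbp7b had 9.66 CPM in replicate 0 and 4.9 and 4.47 CPM in the others, against 10.1 CPM in the control. Genes after these 3 stayed under 2-fold, at log2 0.93 above the mean of the others for msgn1 and 0.91 for rrm2. msgn1, a mesogenin of the presomitic mesoderm, had 9.85, 5.02 and 5.21 CPM in P3 and 2.67 CPM in the control. rrm2, a ribonucleotide reductase subunit, had 29.9, 14.1 and 17.7 CPM in P3 and 22.4 CPM in the control. In cp, he2 and rrm2 the P3 libraries lay on both sides of the control, and none of the 3 was called with all P3 libraries.

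**Figure D5:**
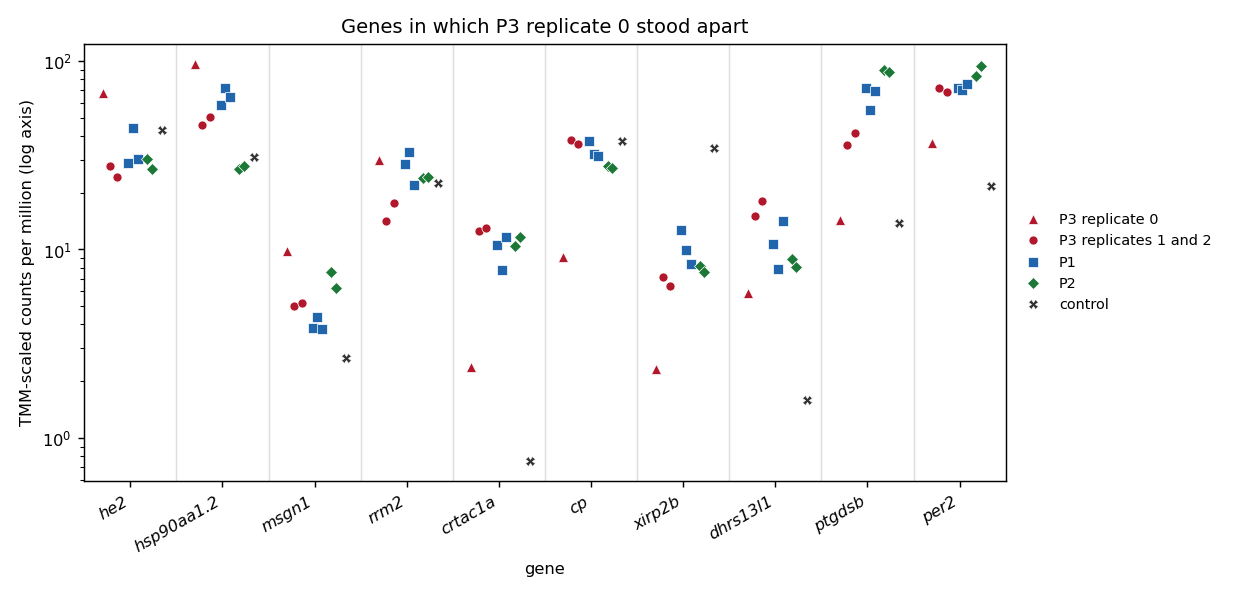
CPM (log axis) in each library of 10 genes in which P3 replicate 0 (triangles) stood apart from P3 replicates 1 and 2 (circles), with P1 (squares), P2 (diamonds) and the control (crosses) beside them. crtac1a had 2.37 in replicate 0 and 12.6 and 13 in the others, and he2 had 67.3 in replicate 0 and 27.9 and 24.2 in the others.

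Without replicate 0, 4673 genes differed from the control, of which 4165 were also among the 4482 called with all P3 libraries, that is 92.9% of the calls with all libraries and 89.1% of those without replicate 0. Thus 317 calls were lost and 508 gained, with rbp7b (log2 -1.11) among those gained. Among the genes printed here, he2 (log2 -0.74, adjusted p = 0.000867), rrm2 (log2 -0.48, adjusted p = 0.0407) and hmox1 (adjusted p = 0.042) were then called lower in P3 than in the control. asns (adjusted p = 0.00539) and msmo1 (adjusted p = 0.0276) were then called higher. The median log2 fold change moved by more than the SD of the P3 libraries' medians for 6 of 41 lists, among them the pigment list, to -0.27, and the fin fold list, to -0.40.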

How the data were processed

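Embryos, exposure and pooling are as given in the labels. Libraries were made from total RNA with an Illumina TruSeq v2 kit and poly(A) selection, per the labels' protocols, and reads were aligned to the Zv9 genome with Novoalign, per the submitters' processing notes; how reads were counted, with which annotation and whether by strand, is not stated there. The deposited tables hold raw counts per gene, per the file headers; the control counts were identical in all 3 tables and were used once. The authors' FPKM values served only to compare levels between CYP1 genes. The authors' scores, which are -10 times the log10 of a p-value, and their variance-corrected log2 ratios, per the file headers, were used in the closing part alone. Left out were 18 per-sample columns.

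Of 32312 genes, 19835 passed edgeR's filterByExpr (minimum count 10; with 1 control library a gene can pass through the control alone). TMM factors were computed and all 9 libraries entered a quasi-likelihood fit on group alone (edgeR 4.0.16, limma 3.58.1, R 4.3.3; common biological coefficient of variation 0.0565, 5 residual degrees of freedom). P3 was compared with the control, P1 and P2 by two-sided F tests, and the SE is the log2 fold change divided by the square root of F. The fit was also tested on simulated counts. The floor of 3 counts covers counting error only.

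The 41 gene lists, the tests and the comparison itself were chosen with earlier results of these data known. Of 2868 list entries, 2369 were found by symbol in the deposited tables, 224 by identifier through the supplied gene name tables, and 275 were not found. By rule, the text takes the 12 largest rises and falls against the control, up to 4 genes with the smallest p per list and 13 set genes. It also takes the 6 highest and 6 lowest against both P1 and P2, and the 6 highest and 6 lowest of replicate 0. The largest rises and falls were taken only where every P3 library lay on the same side of the control. Those against both P1 and P2 were taken only where no P3 library overlapped a P1 or P2 library. Not all are printed. The others, chosen after their values were seen, are ahrrb, ahr2, cyp1d1, nfe2l2a, cdkn1a, ddb2, asns, slc2a1a, cry5, krt5, he1a, mylpfa, cdx4, her1, hoxb13a, elavl3, apoa1a, serpina1l, hadhaa, f7, hbae3, mpx and crabp1b. Printed as tissue markers are cryaa, myl7, vmhc, apobb.1 and mttp. Coordinates are 1-based on Zv9. Alternatives covered DESeq2, other scalings and filters, a 2-fold minimum, a replicate block, thinning and leaving out each P3 library; the closing part gives their effect.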

Additional observations from a re-analysis of the deposited data

How the results depend on the processing

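Of the alternatives, DESeq2 1.42.0 called 2736 genes in P3 against the control (4482 with edgeR), 1263 against P1 (2069) and 2656 against P2 (4270). Requiring more than a 2-fold change left 248 genes against the control, 12 against P1 and 55 against P2. RLE size factors, library totals alone, other filters, a fit of the groups alone and thinning to the control total kept each of these counts within 1.5 times. Leaving out 1 P3 library at a time gave 4006 to 4673 calls against the control, 1787 to 2156 against P1 and 3532 to 4654 against P2. Replicate numbers did not pair the libraries (correlations of same-numbered deviations were -0.107 to 0.018), and a model with a replicate block called 3919, 1664 and 3239 genes. Among named genes the direction turned for 3 that were not called: elovl2 (log2 -0.11 to 0.13 with 1 P3 library left out), he2 (-0.74 to 0.14) and rrm2 (-0.48 to 0.06); he2 and rrm2 were called lower without replicate 0, and the cause was not tested. With 1 control library, a departure of that library cannot be told apart from an effect of the extract, and its 12008832 counts limit what can be said of genes near 0 in the control.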

Other observations

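The authors' deposited table for P3 against the control listed 2393 of the tested genes at or past a score of 13.01, their adjusted p of 0.05, of which 900 had a log2 ratio above 0 and 1493 one below 0. edgeR called 2370 of them too, which is 99% of the genes in the authors' deposited table past that score and 52.9% of the edgeR calls, and the sign was the same for all 2370.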
